A study of Homo sapiens with 4 samples.

Results

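The SR splicing factor genes described here are SRSF1, SRSF2, SRSF3, SRSF4, SRSF5, SRSF6, SRSF7, SRSF9, SRSF10 and SRSF11, 10 of the 24763 named genes in the processed data. They are listed by name, with earlier results of these data known, and every RefSeq transcript that the RefSeq table of GRCh38 assigns to them was included. This gave 25 of the 53209 listed transcripts, 20 with a coding identifier (NM_) and 5 with a noncoding identifier (NR_). All were estimated with status OK in the 4 libraries, and 20 of them (16 coding and 4 noncoding) passed the filter of a mean scaled FPKM of at least 0.5. SRSF8 and SRSF12 are treated with the related genes.

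RNA was recovered by a miRNA pull out from DU-145, an established line from a human prostate carcinoma. In the miR-28CT arm (2 libraries, replicates 1 and 2) cells received 60 nM of an untagged miR-28-5p duplex, and in the miR-28BIO arm (2 libraries, replicates 1 and 2) 60 nM of a mixture of miR-28-5p duplexes with a biotin at the 3′ end and a thiouridine at nucleotide 8 or 18. All cells therefore carried added miR-28-5p, were exposed to ultraviolet light the day after transfection and gave total RNA that was passed over streptavidin beads. Values are given in replicate order, first without the tag (miR-28CT) and then with it (miR-28BIO). The miR-28CT libraries hold the RNA that beads retain without a tag, and the question of the comparison is which RNAs are held back with the tagged miRNA. The values are FPKM, fragments per kilobase of transcript for a fixed number of mapped reads, so levels of different genes can be set side by side per length. RNA before the pull out was not analysed here, so more RNA per cell, more cells and better retention on the beads cannot be told apart.

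SR proteins bind exonic sequences of pre-mRNA through RNA recognition motifs and recruit the splicing machinery through a domain rich in arginine and serine, which SRPK and CLK kinases phosphorylate. Their genes are known for holding down their own output. Many contain a highly conserved cassette exon with an early stop codon, and including it sends the transcript to nonsense-mediated decay. RefSeq lists such isoforms as noncoding, which is why coding and noncoding transcripts are kept apart below.

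The exons that separate the isoforms with the most telling values were located by the difference in listed transcript length and read from hg38. In SRSF6 (chromosome 20, plus strand) the noncoding NR_034009 is 268 bases longer than the coding NM_006275, and GENCODE 44 has 1 internal exon of exactly that length, at chr20:43459153-43459420, between the second and the third exon of the canonical transcript. In SRSF3 (chromosome 6, plus strand) the noncoding NR_036610 is 456 bases longer than NM_003017, the length of the exon at chr6:36599821-36600276. In the reading frame of the canonical coding sequence, SRSF6 reaches a stop at codon 136 and SRSF3 at codon 125, both inside this exon. The stretches below run 5′ to 3′ from the first base of each cassette exon to that stop codon, which is in capitals (chr20:43459153-43459304 and chr6:36599821-36599854). They are shown because the isoform longer by this exon took a larger part of SRSF3 than of SRSF6 in 3 of the 4 libraries.
SRSF6 cassette exon: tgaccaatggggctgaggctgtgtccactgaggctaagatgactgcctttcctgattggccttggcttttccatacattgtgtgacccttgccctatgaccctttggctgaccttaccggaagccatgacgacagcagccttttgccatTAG
SRSF3 cassette exon: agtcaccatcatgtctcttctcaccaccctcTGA

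The other pair shows how small the difference between listed isoforms can be. In SRSF7 (chromosome 2, minus strand) NM_001031684 is 36 bases longer than NM_001195446, which is the length of the exon at chr2:38746144-38746179, coding and in the canonical transcript. In SRSF10 (chromosome 1, minus strand) NM_054016 is 3 bases longer than NM_001191005. GENCODE 44 has a coding exon with 2 versions, 3 bases apart at the 5′ end, and the longer one lies at chr1:23971573-23971626. The extra 3 bases are in capitals, and 50-base reads that do not cross them fit both versions.
SRSF7 exon of NM_001031684: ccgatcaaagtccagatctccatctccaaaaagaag
SRSF10 exon of NM_054016: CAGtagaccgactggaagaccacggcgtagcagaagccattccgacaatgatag

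**Figure D1:**
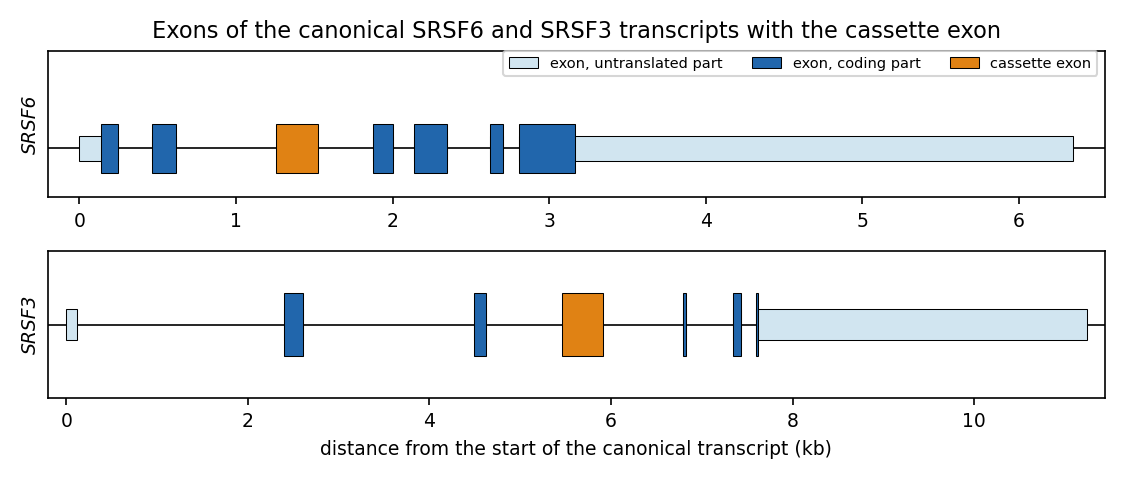
Exons of the canonical GENCODE 44 transcripts of SRSF6 and SRSF3 against the distance from the transcript start in kb, with coding parts in dark blue, untranslated parts in light blue and the cassette exon in orange. The SRSF6 cassette exon has 268 bases and the SRSF3 cassette exon 456 bases, and both lie between coding exons.

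The totals behind the FPKM, estimated from the ratio of coverage to FPKM at 50 bases per read, were between 13.0 and 17.9 M reads per library. The keratins KRT8, KRT18 and KRT19 were present in all libraries (13.3 to 83.7 FPKM), EPCAM had 3.41 to 5.26 FPKM and CDH1 0.907 to 1.77 FPKM, while KLK3, PTPRC and PECAM1 were listed at 0 and COL1A1 was at most 0.178 FPKM. Libraries were scaled by median-of-ratios factors, FPKM were summed per gene, and the arms were compared with limma on log2(scaled FPKM + 0.1). On this scale the median difference over all 11311 tested genes was -0.08. RefSeq names pseudogenes of 7 of the 10 SR genes, and how reads shared with them were assigned is not given in the sources used here.

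SRSF6 had the largest difference between the arms among the 10 SR genes. Its summed FPKM were 27.6 and 15.3 in miR-28CT replicates 1 and 2 and 103.7 and 83.0 in miR-28BIO replicates 1 and 2. Both miR-28BIO values lay above both miR-28CT values, and the lower of them was 83.0 against 27.6 for the higher control. SRSF6 encodes SRp55, an SR protein with a pair of RNA recognition motifs. The scaled sums were 21.9 ± 5.65 (SD, n = 2) and 87.3 ± 15.4 (SD, n = 2), which is a log2 fold change of 2.00 (standard error 0.52, 95% interval 0.57 to 3.43). Within replicates 1 and 2 the log2 fold change was 1.92 and 2.08. In the limma fit across all genes the unadjusted p was 0.0175 and the Benjamini-Hochberg adjusted p was 1.00, so the difference did not pass the threshold of 0.05. By fold change SRSF6 was number 273 of the 11311 genes, and by p number 145.

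With the replicate number as a block, the interval of SRSF6 narrowed to 1.49 to 2.51 and the adjusted p (limma) was 0.0565, still above the threshold. Leaving out each library in turn kept the log2 fold change between 1.76 and 2.29. The study selected the transcript NM_006275 as captured from these same samples, so its direction is no independent evidence. By the mean of the scaled sums SRSF6 was number 7 of the 10 genes in the miR-28CT arm and number 1 in the miR-28BIO arm.

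Both isoforms of SRSF6 had higher values in the miR-28BIO arm, but not to the same degree. The coding NM_006275 (chr20:43457864-43463604, 3746 bases) had 20.1 (replicate 1) and 8.97 (replicate 2) FPKM without the tag, and 88.5 and 66.9 with it. Its arms were well apart, and the scaled values were 4.44 and 5.83 times as high within replicates 1 and 2. The noncoding NR_034009, longer by the length of the SRSF6 cassette exon printed above, had 7.52 (replicate 1) and 6.30 (replicate 2) FPKM without the tag, and 15.1 and 16.2 with it. Here too the arms did not overlap, with scaled values 2.03 and 2.01 times as high. The log2 fold change was 2.34 for the coding isoform (limma, standard error 0.54, unadjusted p = 0.0131, adjusted p = 1.00) and 1.00 for the noncoding isoform (standard error 0.42, unadjusted p = 0.0755, adjusted p = 1.00).

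The noncoding share of SRSF6 was smaller in the miR-28BIO arm. In replicates 1 and 2 it was 27.2% and 41.3% of the gene's FPKM without the tag, and 14.6% and 19.5% with it. The shares of the arms did not overlap. The difference of the means was -17.2 percentage points (two-sided exact permutation test, p = 0.333, the smallest p that 2 against 2 samples allow). The read equivalents (coverage times length over the read length) were 435 to 5719 for NM_006275 and 327 to 1048 for NR_034009. The isoforms differ in length by 268 bases, so most of these reads can fit either isoform. Reads that tell the isoforms apart were not counted here. The Cufflinks intervals of both isoforms in the miR-28BIO libraries lay above those in the miR-28CT libraries. For NM_006275 the upper bound was 21.8 FPKM in miR-28CT replicate 1 and the lower bound was 64.6 FPKM in miR-28BIO replicate 2. These intervals cover the estimation within 1 library and not the spread between samples.

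**Figure D2:**
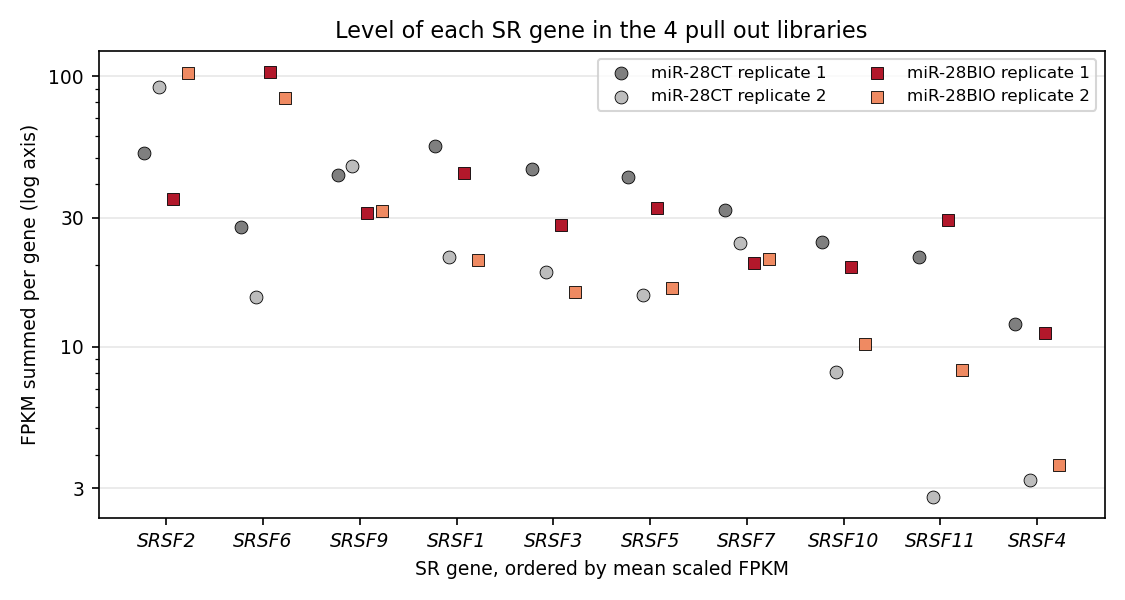
FPKM summed per gene, as deposited, on a log axis for the 10 SR genes in order of their mean scaled level, with circles for the miR-28CT and squares for the miR-28BIO libraries. Both squares of SRSF6 (103.7 and 83.0) stand above both circles (27.6 and 15.3), whereas for most other genes the replicate 2 symbols of both arms lie below the replicate 1 symbols.

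The other SR genes had smaller fold changes. In limma 0 of the 10 SR genes passed an adjusted p of 0.05, with 0 called higher and 0 lower, against 0 (0%) and 3 (0.0265%) of the 11311 genes. At an unadjusted p of 0.05, 1 SR gene was higher (SRSF6) and 0 were lower, against 2.22% and 0.805% of all genes. Both miR-28BIO sums were above both miR-28CT sums in 1 SR gene (SRSF6) and below them in 2 (SRSF7 and SRSF9), against 12.3% and 12.7% of all genes. The fold change was above 0 in 2 SR genes and below 0 in 8, with a median log2 fold change of -0.34. Without SRSF6 the median was -0.35 and the range -0.68 to 0.82. When libraries were scaled to the sum of their NM_ transcripts, the median over all genes moved from -0.08 to 0.31 and that of the SR genes to 0.07, so its sign depends on the scaling. Within replicates 1 and 2 the SR median was -0.34 and -0.23, against -0.05 and -0.07 over all genes. It lay above the median of all genes without miR-28CT replicate 1 (0.23 against -0.04) and without miR-28BIO replicate 2 (0.20 against -0.04). Such a fit leaves a replicate with 1 arm only, so replicate and arm are unbalanced in it.

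SRSF9, which encodes the small SR protein SRp30c, has 1 listed transcript, NM_003769 (chr12:120461668-120469755). It had 43.1 (replicate 1) and 46.7 (replicate 2) FPKM without the tag, and 31.1 and 31.7 with it. The arms did not overlap, and the log2 fold change was -0.68 (limma, 95% interval -2.01 to 0.64, unadjusted p = 0.228, adjusted p = 1.00). GATC overlaps this locus, with 3.34 to 5.46 FPKM summed over the transcripts listed for it, and whether strand was used in the assignment is not given in the sources used here. SRSF7, also called 9G8 and known for a zinc knuckle beside its RNA recognition motif, had sums of 32.0 (replicate 1) and 24.2 (replicate 2) FPKM without the tag, and 20.4 and 21.1 with it. Its log2 fold change was -0.59 (limma, 95% interval -1.79 to 0.60, unadjusted p = 0.242, adjusted p = 1.00). With the sums scaled to NM_ transcripts, 0 SR genes had both miR-28BIO values below the miR-28CT values, against 5.18% of all genes under that scaling.

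**Figure D3:**
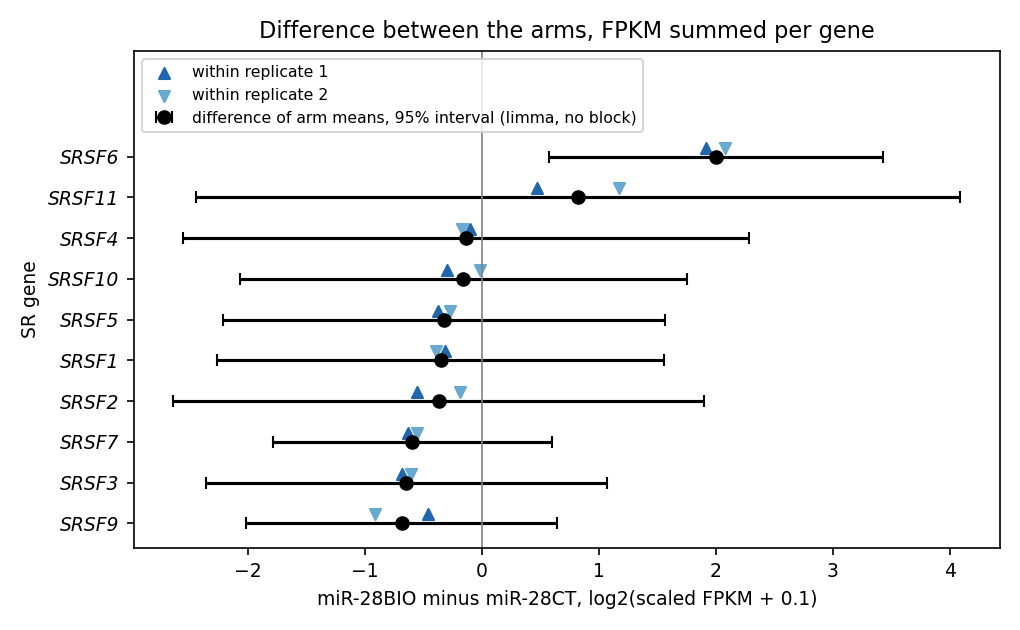
Difference between miR-28BIO and miR-28CT in log2(scaled FPKM + 0.1) of the gene sums, with 95% intervals from limma without a block (black) and the differences within replicate 1 (upward triangles) and replicate 2 (downward triangles). The interval of SRSF6 runs from 0.57 to 3.43 and those of the other genes include 0.

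SRSF3, the smallest of the family (SRp20), had a lower coding isoform in the miR-28BIO arm, while its noncoding isoform varied with the replicate. The coding NM_003017 (chr6:36594313-36604467, 3144 bases) had 22.8 (replicate 1) and 14.8 (replicate 2) FPKM without the tag, and 7.09 and 8.09 with it, with no overlap of the arms. The arms differed by -1.44 on the log2 scale (limma, standard error 0.43, unadjusted p = 0.0295, adjusted p = 1.00), and by -1.66 and -1.22 within replicates 1 and 2. The noncoding NR_036610, longer by the length of the SRSF3 cassette exon, had 22.7 (replicate 1) and 4.16 (replicate 2) FPKM without the tag, and 21.1 and 7.80 with it. For this isoform the arms overlapped and the replicates lay far apart. It made up 49.9% and 21.9% of the gene's FPKM in miR-28CT and 74.8% and 49.1% in miR-28BIO replicates 1 and 2, so the share was larger in the miR-28BIO arm within each replicate, though the arms overlapped (difference of means 26.1 percentage points, two-sided exact permutation test, p = 0.667). The permutation tests in this report moved libraries between the arms without keeping replicates paired. The sum over both isoforms had a log2 fold change of -0.64 (limma, 95% interval -2.36 to 1.07, unadjusted p = 0.359).

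Over all 20 tested transcripts, 0 were called higher and 0 lower at an adjusted p of 0.05 (limma), against 0 (0%) in each direction among 15587 transcripts. At an unadjusted p of 0.05, 1 was higher (NM_006275 of SRSF6) and 1 lower (NM_003017 of SRSF3), against 2.09% and 1.49% of all tested transcripts. Both miR-28BIO values lay above both miR-28CT values in 2 transcripts, the 2 of SRSF6, against 11.5% of all, and below them in 5, against 12% of all. The latter were NM_003769 (SRSF9), NM_003017 (SRSF3), NM_001031684 (SRSF7), NM_003016 (SRSF2) and NM_001039465 (SRSF5). Of the 5 transcripts that did not pass the filter, NR_034041 of SRSF1 and NM_001191007, NM_001191009 and NM_006625 of SRSF10 were listed at 0 in every library, and NM_001191006 of SRSF10 was above 0 in miR-28CT replicate 2 alone, at 1.57 FPKM.

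In several genes the FPKM moved from one listed isoform to another between libraries of the same arm. SRSF10, which encodes SRp38, a splicing repressor when dephosphorylated, gave the clearest case. NM_054016 had 13.3 (replicate 1) and 0 (replicate 2) FPKM without the tag, and 0 and 6.92 with it, and NM_001191005, shorter by 3 bases, had 0 (replicate 1) and 4.46 (replicate 2) FPKM without the tag, and 11.0 and 0 with it. Each library thus listed exactly 1 of the pair above 0, a different one in the 2 replicates of each arm. The noncoding NR_034035 of this gene had 11.2 (replicate 1) and 2.06 (replicate 2) FPKM without the tag, and 8.74 and 3.31 with it. The gene sum of SRSF10 was 24.5 and 8.09 FPKM without the tag and 19.7 and 10.2 with it, and its arms overlapped (log2 fold change -0.16, limma, 95% interval -2.07 to 1.76).

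SRSF7 behaved similarly in 1 library. NM_001195446, shorter by the length of the 36-base exon printed above, had 9.56 FPKM in miR-28BIO replicate 1 and was listed at 0 in the other 3 libraries. In miR-28BIO replicate 1 the longer NM_001031684 had 10.9 FPKM, against 32.0 and 24.2 in the miR-28CT libraries and 21.1 in the other miR-28BIO library. Fold changes of single SRSF7 and SRSF10 isoforms carried standard errors between 0.53 and 3.38 on the log2 scale, and 0.43 and 0.69 were the standard errors of the 2 gene sums.

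SRSF2, which encodes SC35, had the highest mean of the scaled sums over the 4 libraries. Its sums without the tag were 52.1 (replicate 1) and 91.1 (replicate 2) FPKM, and with the tag 35.2 and 102.8. The replicates, not the arms, lay apart, and the log2 fold change was -0.37 (limma, 95% interval -2.63 to 1.90). Most of the FPKM in replicate 2 belonged to the coding NM_001195427 (1968 bases), with 8.04 and 74.98 FPKM without the tag, and 13.9 and 72.3 with it. The longer coding NM_003016 (2963 bases) varied less, at 18.9, 16.1, 15.2 and 14.8 FPKM in the same order, with both miR-28BIO values below the miR-28CT values. The noncoding NR_036608 had 25.2 (replicate 1) and 0 (replicate 2) FPKM without the tag, and 6.02 and 15.7 with it, with no order between the arms. Of the 71 member values above 0, 14 lay outside their own Cufflinks interval, all of them in SRSF2 (10) and SRSF4 (4). Those of SRSF2 lay above it. For NM_001195427 in replicate 2 the interval was 37.0 to 44.4 FPKM without the tag and 25.3 to 31.3 with it, well under the listed values, so the first place of SRSF2 in the order of levels rests on FPKM that its own intervals do not hold.

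**Figure D4:**
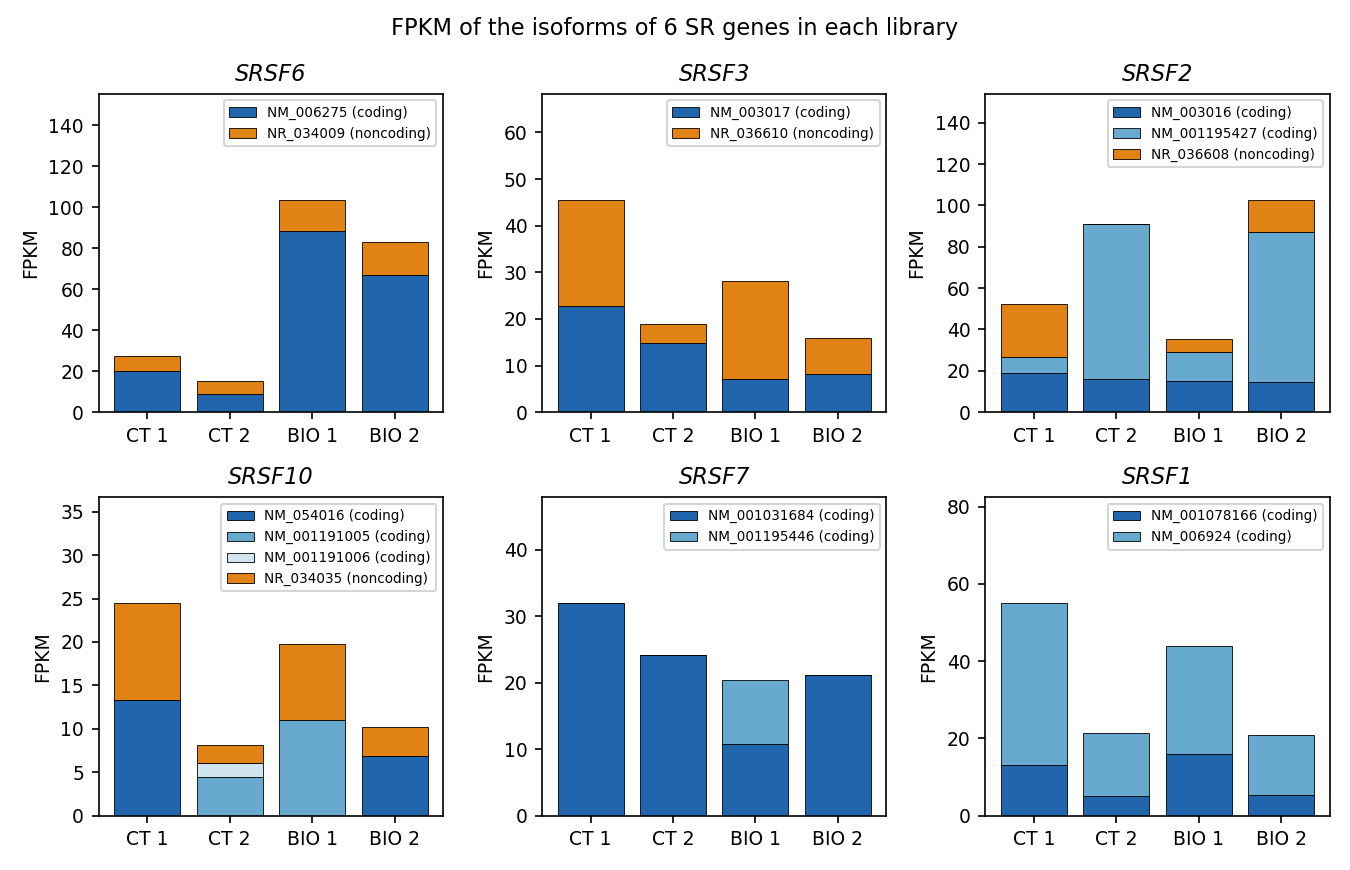
FPKM of each listed isoform above 0 in the 4 libraries (CT, miR-28CT; BIO, miR-28BIO; numbers are replicates) for 6 SR genes, stacked so that bar heights are the gene sums, with coding isoforms in blue and noncoding isoforms in orange. The SRSF6 bars of miR-28BIO are mostly coding (14.6% and 19.5% noncoding), those of SRSF3 are up to 74.8% noncoding, and in SRSF10 the coding part changes identity between libraries.

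SRSF1, which encodes SF2/ASF, had summed FPKM of 55.0 (replicate 1) and 21.5 (replicate 2) without the tag, and 43.99 and 21.0 with it. The arms overlapped, with a log2 fold change of -0.35 (limma, 95% interval -2.26 to 1.56). NM_006924 had 41.8 and 16.5 FPKM without the tag and then 28.04 and 15.7 with it, which was 63.7% to 76.4% of the gene. NM_001078166 made up the rest, with 13.2, 5.08, 16.0 and 5.29 FPKM in that order. SRSF5 (SRp40) had 42.6 (replicate 1) and 15.5 (replicate 2) FPKM without the tag, and 32.6 and 16.5 with it, and again the arms overlapped (log2 fold change -0.32, limma, 95% interval -2.21 to 1.57). NM_006925 had 36.0, 12.7, 32.6 and 13.7 FPKM in that order, at least 81.6% of the gene in every library.

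SRSF4 (SRp75), the member with the longest arginine and serine rich domain, had the lowest mean level of the 10 genes. Its single transcript NM_005626 had 12.1 (replicate 1) and 3.23 (replicate 2) FPKM without the tag, and 11.2 and 3.67 with it, so the listed replicates stood apart and the arms did not (log2 fold change -0.13, limma, 95% interval -2.55 to 2.29). All 4 values lay outside their own Cufflinks intervals, above them in replicate 1 (8.23 to 10.5 FPKM without the tag and 7.08 to 9.19 with it) and below them in replicate 2 (5.70 to 8.22 and 6.76 to 9.05). By these intervals the replicates lay much closer together than by the listed FPKM. SRSF11, a more distant relative that encodes p54, had sums of 21.4 (replicate 1) and 2.80 (replicate 2) FPKM without the tag, and 29.5 and 8.20 with it. Its miR-28BIO value was higher within each replicate, with log2 fold changes of 0.47 and 1.17, but the arms overlapped (0.82, limma, 95% interval -2.44 to 4.09). Its NM_004768 had 13.8, 2.80, 19.5 and 6.57 FPKM and its NM_001190987 7.57, 0, 10.1 and 1.63 FPKM in that order, so both isoforms were lower in replicate 2. Without the replicate block the intervals of SRSF1, SRSF2, SRSF3, SRSF4, SRSF5, SRSF10 and SRSF11 included a 2-fold difference in either direction. With the block they were narrower: those of SRSF1 (-0.84 to 0.14), SRSF2 (-0.95 to 0.22), SRSF4 (-0.59 to 0.33), SRSF5 (-0.80 to 0.16) and SRSF10 (-0.66 to 0.35) included 0 and no 2-fold difference. Those of SRSF3 (-1.12 to -0.17) and SRSF11 (0.13 to 1.52) lay on 1 side of 0, with adjusted p of 0.129 and 0.153 (limma). The blocked intervals of SRSF7 (-1.07 to -0.11) and SRSF9 (-1.28 to -0.09) did so too, with adjusted p of 0.1435 and 0.1605 (limma). These intervals are not adjusted for the number of genes.

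In most of these genes the replicates lay farther apart than the arms. In the miR-28CT arm 8 of the 10 gene sums were lower in replicate 2 than in replicate 1, with a median log2 difference of -0.98, and in the miR-28BIO arm also 8 of 10, with a median of -0.92. Over all tested genes the medians were 0.00 and 0.02. SRSF11 had the largest such difference (-2.58 and -1.88), and SRSF2 went the other way (1.13 and 1.50). With the replicate as a block in limma, 0 SR genes passed an adjusted p of 0.05, while 42 genes (0.371%) were called higher and 22 (0.195%) lower over the whole table. At an unadjusted p of 0.05 in that fit, 2 SR genes were higher (SRSF6 and SRSF11) and 3 lower (SRSF3, SRSF7 and SRSF9), against 10.2% and 15.5% of all genes.

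Set in order of their mean scaled sums over the 4 libraries, the genes ran from SRSF2 (71.0) through SRSF6 (54.6), SRSF9 (38.5), SRSF1 (34.5), SRSF3 (26.6), SRSF5 (26.1), SRSF7 (24.3), SRSF10 (15.2) and SRSF11 (14.7) to SRSF4 (7.30). The order differed between the arms. SRSF6 was number 7 in miR-28CT and number 1 in miR-28BIO, and SRSF3 was number 4 and number 6. The ranges of all 9 neighbouring pairs overlapped. SRSF1 was nevertheless above SRSF3, and SRSF7 above SRSF10, in 4 of 4 libraries. Taken over the 10 genes together, noncoding isoforms made up 18.7% and 5.06% of the scaled FPKM in miR-28CT and 14.3% and 13.7% in miR-28BIO replicates 1 and 2. The arms overlapped (difference of means 2.12 percentage points, two-sided exact permutation test, p = 1.00).

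Genes that encode other proteins with arginine and serine rich domains, and genes that regulate SR proteins or decay their noncoding isoforms, were compared in the same fit. Of 21 SR-related genes 20 were tested (U2AF1 was listed at 0 in every library), and 0 were called higher and 0 lower (limma). At an unadjusted p of 0.05 the count was 0 without the replicate block. With the block 1 was higher (LUC7L3, limma, adjusted p = 0.0931) and 1 lower (U2AF2, limma, adjusted p = 0.0873) at that unadjusted threshold, no larger a share than the 10.2% and 15.5% of all genes. Both miR-28BIO sums were above the miR-28CT sums in 0 and below them in 2 (SRSF8 and RNPS1), against 12.3% and 12.7% of all genes, and the median log2 fold change was 0.19. This median was 0.04 and 0.18 within replicates 1 and 2, and ran from -0.72 to 1.01 when 1 library was left out. The highest fold changes were those of LUC7L3 (0.88), SRRM1 (0.52) and SON (0.45), and the lowest those of U2AF2 (-0.95), SRSF8 (-0.42) and SNRNP70 (-0.41). LUC7L3 is a relative of a yeast U1 snRNP protein, SON and SRRM1 are large splicing co-factors, and U2AF2 binds the polypyrimidine tract. LUC7L3 had 13.4 (replicate 1) and 1.54 (replicate 2) FPKM without the tag, and 22.7 and 4.01 with it, with overlapping arms.

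Of 18 regulators, among them the SRPK and CLK kinases, the carrier TNPO3 that brings SR proteins into the nucleus and the UPF and SMG factors of nonsense-mediated decay, 16 were tested, since SRPK3 and CLK2 were listed at 0. Again 0 were called higher and 0 lower, with separated arms in 2 upward (TNPO3 and SMG1) and 1 downward (SMG5), against the same 12.3% and 12.7%, and a median log2 fold change of 0.12. The regulator median was 0.12 and 0.04 within replicates 1 and 2, and ran from -0.28 to 0.49 when 1 library was left out. PRPF4B, a kinase of the spliceosome that the RefSeq table names PRP4K, had the highest fold change. It had 13.0 (replicate 1) and 2.701 (replicate 2) FPKM without the tag, and 33.4 and 11.0 with it, so the arms overlapped although each miR-28BIO value exceeded the miR-28CT value of its replicate. The log2 fold change of PRP4K was 1.51 (limma, standard error 0.97, unadjusted p = 0.193, adjusted p = 1.00), and with the replicate block the unadjusted p was 0.00142 and the adjusted p 0.0687. SMG1 (0.35) and SRPK1 (0.32) followed, and SMG5 (-0.42), UPF1 (-0.34) and CLK4 (-0.33) were lowest.

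**Figure D5:**
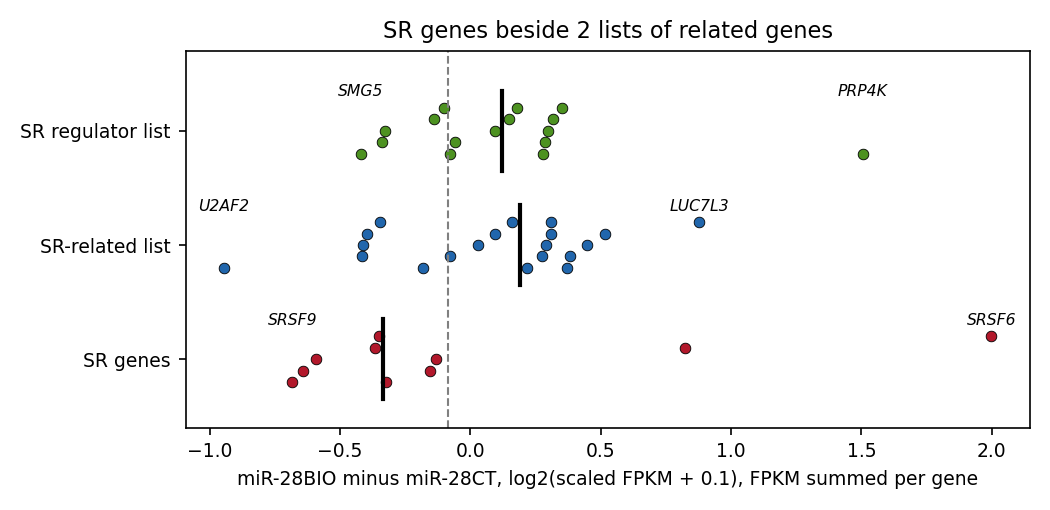
Difference between miR-28BIO and miR-28CT in log2(scaled FPKM + 0.1) of the gene sums for the SR genes (10), the SR-related list (20 tested) and the SR regulator list (16 tested). Each point is a gene, black bars are medians (-0.34, 0.19 and 0.12), the dashed line is the median of all genes (-0.08), and the vertical offset of the points has no meaning. SRSF6 (2.00) and PRP4K (1.51) lie farthest to the right.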

How the data were processed

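RNA retained in a miRNA pull out from DU-145 cells was sequenced in 2 miR-28CT and 2 miR-28BIO libraries, with arm and replicate taken from the sample titles. According to the methods and the submitters' processing notes, reads of 50 bases were checked with FastQC 0.10.1 (the notes also name cutadapt), aligned to hg38 with TopHat2 2.0.9 and quantified per RefSeq transcript with Cufflinks 2.1.1. The strand setting and the annotation version are not given in the sources used here. The authors deposited FPKM with the bounds of the Cufflinks interval and a coverage signal per transcript. The coverage served only to estimate depth, and since its values are not whole reads, no counting interval was calculated.

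For the 52530 transcripts whose status was OK throughout, FPKM were scaled by median-of-ratios factors over the 11650 above 0 everywhere. Transcripts (15587) and sums per gene symbol (11311) averaging 0.5 scaled FPKM or more entered the test as log2(value + 0.1) with lmFit and eBayes with a trend in limma 3.58.1 (R 4.3.3), with Benjamini-Hochberg adjustment over all of them and a threshold of 0.05. Fold changes on this scale understate those of low genes. Symbols were found for 98.4% of the tested transcripts. The methods name Cuffdiff, which needs reads, so FPKM were tested here.

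The member genes and lists were chosen with earlier results of these data known. All 10 SR genes are named, and their isoforms with at least 20% of a gene's FPKM in any library; of each related list, the 3 highest and the 3 lowest fold changes are named. The methods describe 2 biological replicates with 2 pull outs of each arm, and do not say which pull outs belong together. Same-numbered libraries were read as pairs, which is an assumption. Their deviations from the arm means correlated (r = 0.422 across transcripts and 0.623 across gene sums, which are not independent replicates). The limma p-values set the arm difference against the spread between these libraries, moderated by the trend over all genes or transcripts. Without the block that spread includes the difference between replicates. On simulated data with the spread of these libraries, the unblocked fit gave nearly all changed genes their right sign but called none of them at the adjusted threshold. It called nearly all when the spread was made far smaller. The simulated noise was independent between libraries and held no replicate pairs. The absence of calls in the unblocked fit therefore does not show that the arms are alike. The fit with the replicate block was not simulated. Alternatives were other pseudocounts, filters and scalings, limma without a trend, the replicate block, other status rules and leaving out each library. Sums of NM_ transcripts alone were added after seeing the data. Matches to miR-28-5p in the member transcripts were not analysed here. Python 3.11.15, numpy 2.4.6, pandas 2.3.3 and matplotlib 3.10.9 were used.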

Additional observations from a re-analysis of the deposited data

How the results depend on the processing

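Under every alternative run, 0 SR transcripts and 0 SR genes passed the adjusted threshold in limma, and the direction held for SRSF6 (log2 fold change 1.76 to 2.41), SRSF3, SRSF7 and SRSF9, though the size did not: with scaling to the sum over NM_ transcripts SRSF3 was -0.23, SRSF7 -0.18 and SRSF9 -0.27. With the replicate block the lowest adjusted p of an SR gene was 0.0565 (SRSF6, against 1.00 without the block), and the block changed no call of an SR gene. FPKM as deposited gave an SR median of -0.17, list medians of 0.35 (SR-related) and 0.28 (regulators), and turned SRSF4 to 0.034 and SRSF10 to 0.013. Upper quartile scaling gave an SR median of -0.23. Scaling to the sum over NM_ transcripts gave an SR median of 0.074, left 0 SR genes with lower separated arms, and turned SRSF1 to 0.060, SRSF2 to 0.044, SRSF4 to 0.27, SRSF5 to 0.087 and SRSF10 to 0.25. When 1 of the 4 libraries was dropped in turn, a fit in which a lone sample is assumed to vary like the other arm, 1 to 3 SR genes had higher and 3 to 7 lower separated arms (25.6% to 33.2% and 27.6% to 37.9% of all genes), the SR median was -0.69 to 0.23, the SR-related median -0.72 to 1.01 and the regulator median -0.28 to 0.49. The log2 fold change was then -0.90 to 0.21 for SRSF1, -1.11 to 0.39 for SRSF2, -0.94 to 0.69 for SRSF4, -0.86 to 0.27 for SRSF5, -0.76 to 0.50 for SRSF10 and -0.44 to 2.14 for SRSF11. For SRSF3 it was -0.15 without miR-28CT replicate 1, -0.20 without miR-28BIO replicate 2, -1.09 without miR-28CT replicate 2 and -1.07 without miR-28BIO replicate 1, and for SRSF9 -0.44 without miR-28CT replicate 2 and -0.87 without miR-28CT replicate 1. The noncoding share differed by -4.71 to 8.94 percentage points. Leaving out a library left its replicate with 1 arm only, so replicate and arm were unbalanced in these fits. Within replicates 1 and 2 the log2 fold change was -0.31 and -0.39 for SRSF1 and -0.55 and -0.18 for SRSF2. For SRSF4 it was -0.10 and -0.17, for SRSF5 -0.37 and -0.27, for SRSF10 -0.30 and -0.02, and for SRSF11 0.47 and 1.17. With NM_ transcripts alone in the sums, a setting chosen after seeing the data, the log2 fold change was 2.34 for SRSF6 and -1.44 for SRSF3. The cause of these changes was not tested. Counts of matches to nucleotides 2 to 8 or 2 to 7 of miR-28-5p were not run.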
